A study of Mus musculus with 4 samples.

Results

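Fox, Sox, Tbx and Klf genes are 4 families of DNA-binding transcription factors, and their regions of DNMT3B enrichment in lung metastases are described here family by family. Members were all protein-coding mouse genes whose symbol is Fox with a letter and a number, or Sox, Tbx or Klf with a number. There were 93 members (44 Fox, 19 Sox, 13 Tbx and 17 Klf) of 21900 protein-coding genes in the RefSeq table. Each symbol was looked up in the deposited lists, and 31 members had a region in at least 1 of them. The other 62 (66.7%) were in neither list, against 79.1% of all protein-coding genes. A list holds what its authors kept, so this says nothing of weaker enrichment.

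The material was lung metastases of 4T1, a mouse mammary tumour cell line, in the BALB/c strain. Chromatin was immunoprecipitated with an antibody against DNMT3B in 2 libraries, and 2 input libraries had no antibody. Both kinds carried the lung labels 3 and 5, and no genotype, treatment, age or number of animals was given in the sources used here. The data were 2 lists for the whole series: 1704 distinct narrow regions called with MACS and 8242 broad islands called with SICER. Neither list held a read count, score or library, so depth and spread between libraries are unknown, no test between libraries was possible, and the tissue label could not be checked against marker genes. All counts and shares below are descriptions.

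DNMT3B is an enzyme that adds methyl groups to cytosines that precede a guanine (CpG), and its chromatin reader domain binds nucleosomes carrying the histone marks of transcribed gene bodies. Forkhead (Fox) proteins bind DNA through a winged-helix domain, Sox proteins through a high-mobility-group box related to that of SRY, T-box (Tbx) proteins through the domain first described in Brachyury, and Krüppel-like (Klf) proteins through zinc fingers that recognise GC-rich and CACCC elements. All of these families set cell identity during development, and many members are used again in epithelial tumours.

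Narrow MACS regions named 10 of the 93 members (10.8%), against 6.14% of all protein-coding genes. They were Foxc1, Foxc2, Foxf1, Foxj2, Foxl1, Klf6, Klf16, Sox10, Sox21 and Tbx1. By family the counts were 5 of 44 Fox genes (11.4%), 2 of 19 Sox genes (10.5%), 1 of 13 Tbx genes (7.69%) and 2 of 17 Klf genes (11.8%). A gene was counted when it was the nearest feature of a region or was named as overlapping it.

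Broad SICER islands were paired with 24 members (25.8%), against 17.2% of all protein-coding genes. The Klf family had the highest share among these families, with 7 of 17 genes (41.2%). This rests mostly on narrow islands. Only Klf3 and Klf10 had an island at least as wide as the median of all islands, 4800 bp. The other families lay between 21.1% and 23.1%, with 10 Fox, 4 Sox and 3 Tbx genes. Foxl1, Sox10 and Tbx1 appeared in both lists. They were 3.23% of the members, where 2.46% of all protein-coding genes had both. Of the members named by MACS, 30% also had an island, against 40% over all genes named by MACS. Of the members with an island, 12.5% also had a MACS region, against 14.3% over all genes with an island.

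Families of other transcription factors, defined by symbol in the same way, spanned a wide range. Of 39 Hox genes, 5 (12.8%) were named by a MACS region and 1 (2.56%), Hoxa2, was paired with an island. Islands were paired with 5 of 9 Irf genes, 2 of 6 Gata genes, 1 of 9 Pax genes and 31 of 367 Zfp genes (8.45%). Several of these families have fewer than 10 genes, so that a single gene moves their share widely. No test of the members against these families was made, because the members were chosen with results of these data known.

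**Figure D1:**
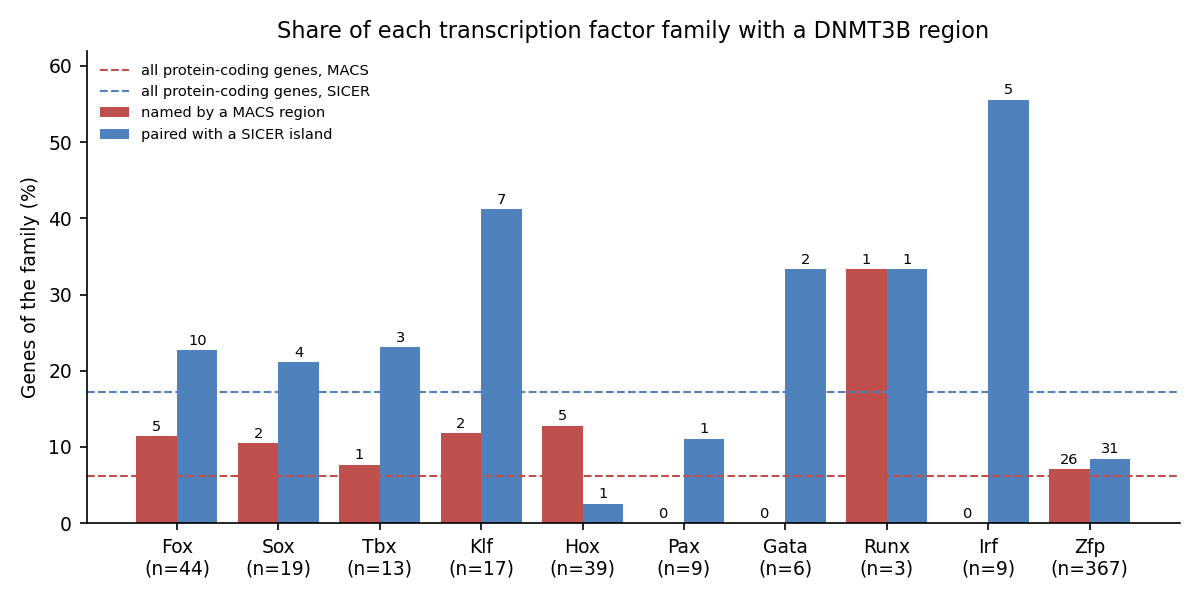
Share of genes in each family, in percent, that were named by a MACS region (red bars) or paired with a SICER island (blue bars), with the number of such genes above each bar and the family size under its name. Dashed lines give the shares over all protein-coding genes (6.14% and 17.2%). All 4 families of interest stand above both lines, and the Klf family has the tallest blue bar among them. The Tbx bars rest on 1 and 3 genes and the Sox bars on 2 and 4, so a single gene moves them widely.

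Positions of regions are given as deposited, and those of islands come with the position of the paired transcript. The build of the positions is not known with certainty. The submitters' processing notes name mm10, yet the transcript starts of 0 of the 24 members with an island lay within 1 kb of the gene's outer boundary in GRCm38, the same assembly, and the median difference was 176 kb. Over all genes of the SICER list, 6.74% lay within 1 kb and the median difference was 186 kb. The deposited positions thus mostly do not match GRCm38, whichever build they follow. GRCm38 positions of the sequences printed below cannot be set against deposited positions. Positions in the MACS list carry at most 6 significant digits, so 8 of the 17 member regions stand on multiples of 1000 bp, 7 on multiples of 100 bp and 2 on multiples of 10 bp. In 10 of the 17, start and end were equal. Member positions were coarser than those of the list as a whole, with 47.1% on multiples of 1000 bp against 26.1% of all 1704 regions, and 58.8% with equal start and end against 31.1%. The step follows the size of the position on its chromosome. Of the 8 member regions on multiples of 1000 bp, 6 come from 1 cluster, that of Foxf1 on chromosome 8.

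The forkhead genes Foxf1, Foxc2 and Foxl1 lie close together on chromosome 8, and each was named by a MACS region. Foxf1 is a regulator of lung mesenchyme and vessels, Foxc2 of lymphatic and mesenchymal cells, and Foxl1 of gut mesenchyme. Foxf1 had 4 regions, the most of any member. The first stood at 123608000, 285 bp upstream by the deposited distance, the second at chr8:123608000-123609000 with 71.4% of its length in the gene, and the third at 123609000 within the gene. The fourth, chr8:123613000-123614000, lay 945 bp downstream. The start implied by these distances is 123608285, so the first 3 regions fall at the gene start within the rounding of 1000 bp.

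Foxc2 had a region at 123640000, 70 bp upstream by the deposited distance, which is less than the rounding step. Foxl1 had a region at 123650000, 1584 bp upstream. The long noncoding gene Fendrr, which is transcribed away from Foxf1, was nearest to a further 4 MACS regions between 123597000 and 123608000. Within 50 kb of these genes' regions, 10 MACS regions were listed, and the 3 forkhead genes accounted for 6 of them.

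Most narrow regions of the 3 forkhead genes lay outside the broad islands of the same neighbourhood. The same held for the list as a whole, where 30.6% of all 1704 regions lay in an island. Foxl1 was paired with an island at chr8:123651400-123653599, which began 184 bp before its start and covered 68.1% of the transcript. A second Foxl1 island, chr8:123654400-123668599, crossed the gene end and ran 14055 bp beyond it. At 14200 bp it was the widest island of any member. A further island of 20800 bp, chr8:123612600-123633399, began just past the end of Foxf1 but was paired with Mthfsd, a gene of folate metabolism. It held the downstream region of Foxf1. The other 3 regions of Foxf1 lay 3600 to 4600 bp from it, that of Foxc2 6601 bp, and that of Foxl1 1400 bp from the first Foxl1 island.

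**Figure D2:**
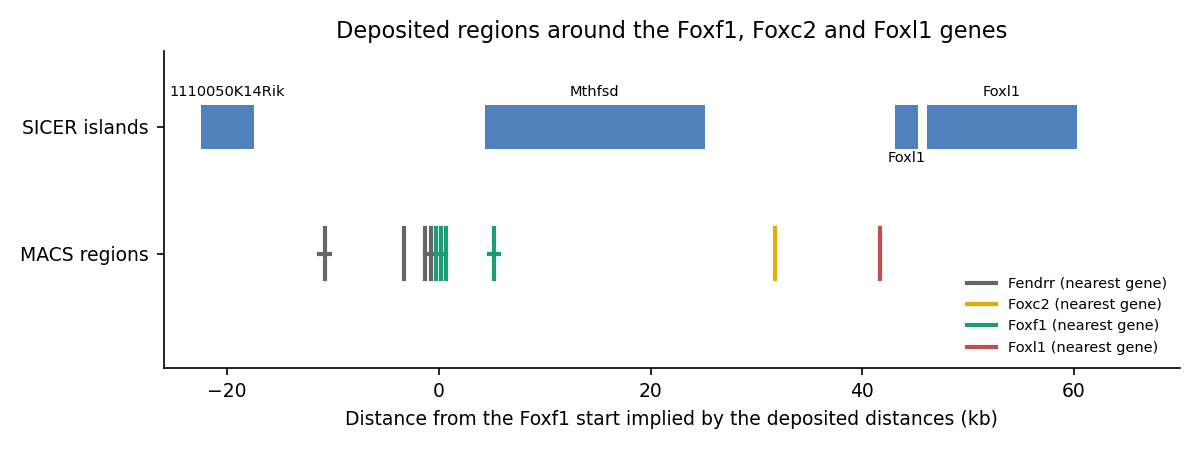
MACS regions (vertical ticks at the region's middle, coloured by nearest gene, with a horizontal bar where start and end differ) and SICER islands (blue bars with the paired gene) against distance in kb from the Foxf1 start implied by the deposited distances. MACS positions here are rounded to 1 kb. The ticks of Fendrr and Foxf1 gather near 0, and no island lies there. The nearest islands begin past the end of Foxf1 and, to the left, lie at 1110050K14Rik.

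A related forkhead cluster on chromosome 13, with Foxq1, Foxf2 and Foxc1, carried 1 narrow region and no island. Foxc1, the close paralog of Foxc2 and a factor linked to basal-like breast tumours, had a region at chr13:31899700-31899800 contained within the gene. The nearest island of any gene was 1898101 bp away. Foxq1 and Foxf2 were in neither list.

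Foxj2 was the other forkhead gene with a narrow region. It encodes a widely expressed factor, and its region on chromosome 6 stood at 122770000. The listed distance was 201 bp upstream, below the rounding of 1000 bp. The nearest island was 1576000 bp away. The RefSeq sequence of the 250 bases before its start is printed because the listed distance falls within that length. Given the rounding and the difference in build, the region is not shown to lie in these bases. Every CpG is in capitals (GRCm38.p6, chr6:122819934-122820183, plus strand).
Foxj2: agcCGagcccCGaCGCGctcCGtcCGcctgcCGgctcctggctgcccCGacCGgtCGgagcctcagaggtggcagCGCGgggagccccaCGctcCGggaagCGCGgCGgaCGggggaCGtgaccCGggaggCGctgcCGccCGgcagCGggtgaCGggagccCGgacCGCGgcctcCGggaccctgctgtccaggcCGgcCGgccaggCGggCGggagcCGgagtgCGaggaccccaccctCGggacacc
It held 36 CpG, a number reached by 3.27% of the 21263 promoter windows of protein-coding genes of the same length, whose median was 10.

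The forkhead genes with islands were spread over several small subfamilies. An island was paired with 3 of 4 FoxN genes, with both FoxK genes, and with 1 gene each of the FoxJ, FoxL, FoxA, FoxO and FoxP subfamilies. No gene of the FoxB, FoxC, FoxD, FoxE, FoxF, FoxH, FoxI, FoxM, FoxQ, FoxR or FoxS subfamilies was paired with an island. In all, 30 Fox genes were in neither list, among them Foxa1, Foxa2, Foxb1, Foxb2, Foxd1 to Foxd4, Foxe1, Foxe3, Foxf2, Foxh1, Foxi1 to Foxi3, Foxj3, Foxl2, Foxm1, Foxn2, Foxo1, Foxo4, Foxo6, Foxp1 to Foxp3, Foxq1, Foxr1, Foxr2 and Foxs1. Of these, Foxa1 is a cofactor of the oestrogen receptor in luminal breast cells and Foxm1 a driver of mitotic genes.

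Foxo3, a factor held out of the nucleus by Akt, was the FoxO gene with islands. It had 3, all on chromosome 10. The island at chr10:41994000-41998799 crossed the gene start, from 2251 bp before it to 2548 bp after it. The others lay inside the gene, at chr10:41945400-41946399 and chr10:41912200-41914199. Together they covered 6.10% of the 91.0 kb transcript. The bases before the Foxo3 start are printed because an island crosses it (GRCm38.p6, chr10:42276696-42276945, minus strand, CpG in capitals).
Foxo3: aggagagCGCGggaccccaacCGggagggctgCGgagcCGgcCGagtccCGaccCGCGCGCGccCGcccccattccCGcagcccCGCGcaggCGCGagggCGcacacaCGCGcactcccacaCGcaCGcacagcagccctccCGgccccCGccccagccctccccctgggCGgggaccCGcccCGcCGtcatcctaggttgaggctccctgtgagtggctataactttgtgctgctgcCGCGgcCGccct
This stretch held 31 CpG, a number reached by 6.67% of promoter windows.

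FoxJ and FoxK genes had the wide forkhead islands at gene starts. Foxj1, the master factor of motile cilia, had an island of 10600 bp at chr11:116192400-116202999 that ran from 6331 bp before the start over 91.8% of the transcript. A second Foxj1 island of 6600 bp began 2618 bp past the gene end. Foxk1, a repressor of muscle and autophagy genes, had an island of 11400 bp at chr5:142876000-142887399 across its start and another of 1800 bp inside. Those islands covered 19.4% of Foxk1, but 2 islands paired with C330006K01Rik, of 41000 and 8600 bp, also lay over it, and 93.4% of the transcript was under an island of either gene. Foxk2 had an island of 8200 bp that ended 3701 bp before its start.

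In the FoxN and FoxP genes the islands lay mostly inside long transcripts. Foxn3, a checkpoint repressor, had 4 islands inside its 255 kb transcript, the most of any member, between 166 and 242 kb from the start. They were 1600 to 4000 bp wide and covered 4.08% of the gene. Foxn1, the factor of thymic and skin epithelium that is lost in nude mice, had an island of 11000 bp and another of 1000 bp inside the gene, which together covered 42.4% of it. Foxp4, a regulator of airway epithelium, had an island inside and another that ended 219 bp before its start. Foxn4 and Foxa3 had an island each past the gene end, at 8173 and 7232 bp from it. The island paired with Foxa3 held a MACS region at chr7:19590100-19590200 that was contained within another gene, Irf2bp1.

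Among the Sox genes, the SoxE subfamily had 2 of 3 genes paired with an island. SoxE factors direct neural crest, cartilage and glial fates, and Sox9 and Sox10 also mark progenitor-like cells of the mammary gland. Sox9 had an island of 4600 bp at chr11:112642200-112646799 from 1323 bp before its start over 59.0% of the transcript. Sox8 was in neither list.

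Sox10 appeared in both lists. Its island of 5800 bp, chr15:78994600-79000399, lay mostly before the start, from 5479 bp upstream to 320 bp inside. Its 3 MACS regions stood at 78993700, in an intron, at 78994000 and at chr15:78994200-78994400, the last 2 contained within the gene. None of them touched the Sox10 island, from which the nearest was 200 bp away. The first lay in an island of 20200 bp paired with the neighbour Polr2f, chr15:78973800-78993999, and the second stood 1 bp from its end, less than the rounding of 100 bp. That island covered 90.4% of Sox10, and with both islands 93.7% of the gene was covered.

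The other Sox genes with regions came from different subfamilies. Sox13, a SoxD gene, had 3 islands of 1600 to 5400 bp: inside the gene, across its end (chr1:135278400-135282599) and 1277 bp beyond it. Sox4, a SoxC gene that is high in many carcinomas, had an island of 2800 bp that ended 3649 bp before its start. Sox21, a SoxB2 gene of neural progenitors, had a MACS region at 118635000 on chromosome 14, contained within the gene and 399200 bp from an island. The remaining 14 Sox genes were in neither list: Sox1 to Sox3, Sox5 to Sox8, Sox11, Sox12, Sox14, Sox15, Sox17, Sox18 and Sox30. This group holds every SoxB1 and SoxF gene, among them the pluripotency factor Sox2 and the endothelial factors Sox17 and Sox18.

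Tbx1, the T-box gene of pharyngeal development, was the member whose narrow regions and own island coincided. Its MACS regions stood at chr16:18590700-18590800 and at 18592000, and both lay in an island of 4400 bp at chr16:18587800-18592199. A second island of 6000 bp, chr16:18593000-18598999, followed upstream with no MACS region. The transcript in the SICER list starts at 18587062, which puts the first island 738 bp upstream, and the distance of 4937 bp for the second MACS region is counted from the same start. The wording for the first region instead has 65.3% of it overlapping Tbx1, so the gene models behind the lists give Tbx1 more than 1 start. Chromosome 16 also carries the highest share of genes named by MACS, 35.3% of its 679 protein-coding genes, and Tbx1 is the 1 member on it.

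RefSeq lists 2 starts of Tbx1, and the bases before each are printed with CpG in capitals (GRCm38.p6, chr16:18588900-18589149, minus strand and chr16:18590672-18590921, minus strand). Neither start was matched to a start in the deposited lists. Because the positions differ in build, the printed bases cannot be placed under the deposited regions.
Tbx1 inner start: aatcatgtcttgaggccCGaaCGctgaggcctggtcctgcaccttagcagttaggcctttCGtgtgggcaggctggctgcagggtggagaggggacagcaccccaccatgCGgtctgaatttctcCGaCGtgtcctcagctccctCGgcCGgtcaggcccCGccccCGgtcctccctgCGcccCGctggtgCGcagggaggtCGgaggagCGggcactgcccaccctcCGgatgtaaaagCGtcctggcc
Tbx1 outer start: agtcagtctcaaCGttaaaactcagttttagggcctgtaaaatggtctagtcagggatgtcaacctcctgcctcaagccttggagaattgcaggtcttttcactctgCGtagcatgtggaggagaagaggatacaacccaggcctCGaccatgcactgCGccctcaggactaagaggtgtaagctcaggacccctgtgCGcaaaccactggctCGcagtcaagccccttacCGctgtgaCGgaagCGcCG
The inner stretch held 17 CpG, a number reached by 31.4% of promoter windows, and the outer one 10, reached by 50.1%.

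The limb and lung factors Tbx2 and Tbx4, neighbours on chromosome 11, were each paired with an island at or past the gene end. That of Tbx4, chr11:85727200-85729999, crossed the end of the transcript by 400 bp. That of Tbx2, chr11:85656000-85659399, began 550 bp beyond the end. Their paralogs Tbx3 and Tbx5, neighbours on chromosome 5, were in neither list. The same held for Tbx6, Tbx10, Tbx15, Tbx18 to Tbx20, Tbx21 and Tbx22. No island covered the start of a Tbx gene as the SICER list places it.

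Islands in the Klf family were most frequent in the group that binds the Sin3 corepressor. Of its 6 genes, Klf9, Klf10, Klf13 and Klf14 were paired with an island, Klf16 was named by a MACS region and Klf11 was in neither list. Among those with an island, only Klf10 had one at least as wide as the median of all islands. Klf10, induced early by TGF-beta, had an island of 4000 bp at chr15:38229200-38233199 across its start and another of 10400 bp that began 7368 bp past its end. Klf13, a regulator of lymphocyte genes, had an island of 2000 bp at chr7:71083600-71085599 that reached from 1798 bp before the start to 201 bp inside. Klf9 was paired with an island that ended 4116 bp before its start. Another island of 1800 bp, chr19:23215000-23216799, was paired with Mir1192 but lay across the Klf9 start, over 4.22% of the transcript. Klf14, an intronless gene imprinted in mouse, had an island of 600 bp inside, the narrowest of any member.
Klf13: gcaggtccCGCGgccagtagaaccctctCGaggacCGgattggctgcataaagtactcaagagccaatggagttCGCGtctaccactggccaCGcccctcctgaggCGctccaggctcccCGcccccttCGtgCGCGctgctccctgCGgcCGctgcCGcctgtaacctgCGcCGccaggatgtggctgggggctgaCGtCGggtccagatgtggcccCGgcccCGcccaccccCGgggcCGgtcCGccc
The Klf13 bases, shown because the island crosses this start, are the 250 before it (GRCm38.p6, chr7:63938916-63939165, minus strand), and the capitals mark 24 CpG, against a median of 10 over all promoter windows.

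Klf16 had a MACS region at 80039600 on chromosome 10, contained within the gene. It lay in an island of 10000 bp, chr10:80034200-80044199, that was paired with the neighbour Rexo1. Klf6, described as a tumour suppressor in several carcinomas, had 2 MACS regions with the finest positions of any member, chr13:5860740-5860910 and chr13:5860990-5861110. They were 170 and 120 bp long, stood 80 bp apart and were both worded as contained in Klf6. The nearest island was 17652690 bp away. The bases before the Klf6 start are printed as those of the member with the most exact regions (GRCm38.p6, chr13:5861239-5861488, plus strand), with 21 CpG in capitals, a number reached by 21.5% of promoter windows. These GRCm38 positions cannot be set against the deposited ones. The regions were worded as within the gene, so the printed bases are not shown to lie under them.
Klf6: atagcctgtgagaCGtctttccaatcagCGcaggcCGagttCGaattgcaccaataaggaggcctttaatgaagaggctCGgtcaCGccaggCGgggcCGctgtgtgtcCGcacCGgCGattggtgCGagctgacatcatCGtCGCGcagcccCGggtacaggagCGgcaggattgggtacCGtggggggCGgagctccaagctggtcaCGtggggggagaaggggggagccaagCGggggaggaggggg

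In the other Klf groups the islands lay inside genes. Klf3, a repressor that recruits CtBP, had islands of 7000 and 7600 bp that together covered 54.9% of its transcript. Klf15, a factor of glucose and amino acid metabolism, had islands of 3800 and 3400 bp over 57.2% of its transcript. Klf4, a factor of epithelial differentiation and pluripotency, had an island of 2000 bp from 548 to 2547 bp after its start, 37.4% of the gene. The other 8 Klf genes, Klf1, Klf2, Klf5, Klf7, Klf8, Klf11, Klf12 and Klf17, were in neither list.

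The 40 member islands lay at gene starts, inside genes and beyond them. They covered the gene start in 8 cases (20%), against 15.4% of all 8242 islands, and the gene end in 3 (7.5%), against 12.8%. A further 17 lay inside the gene (42.5%, against 46.9%), 6 upstream and 6 downstream (15% each, against 12.3% and 15.7%). The starts of Foxj1, Foxk1, Foxl1, Foxo3, Klf10, Klf13, Sox9 and Sox10 were covered by an island paired with them. They were 8.60% of the members, against 5.33% of all protein-coding genes by the same rule. Klf9, whose start lay under an island paired with Mir1192, is not in this count. At least 2 islands were paired with 12 of the 24 members (50%), against 47.4% of all genes with an island, so this share was near the background.

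**Figure D3:**
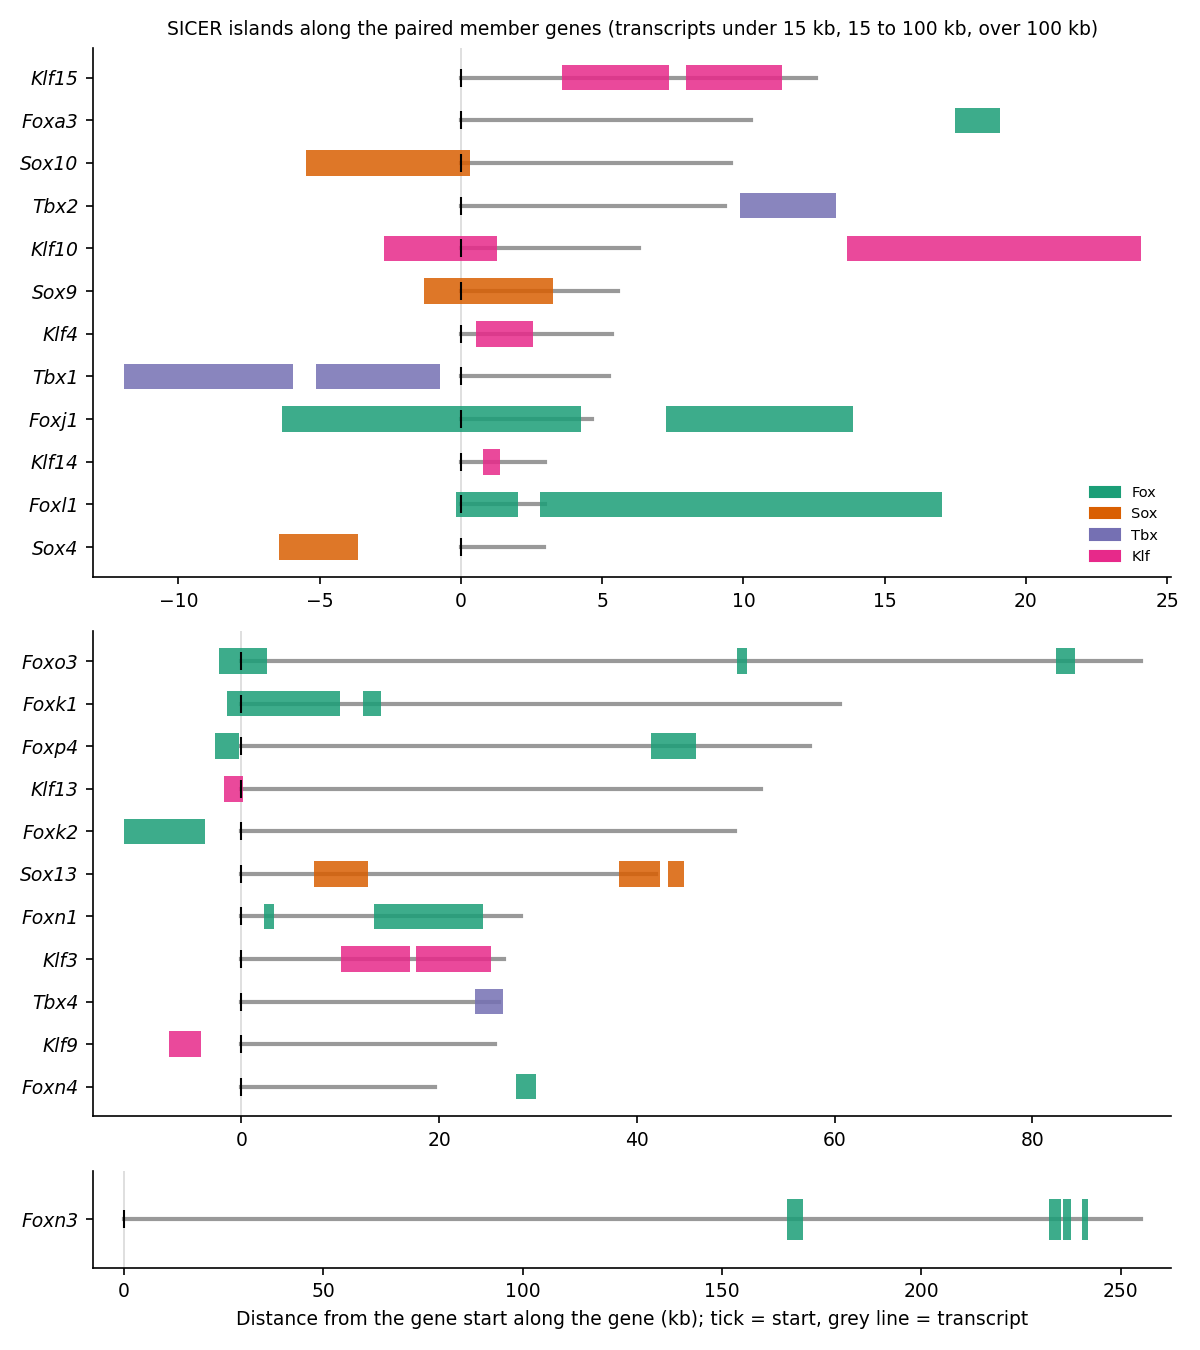
SICER islands (coloured bars, by family) along the transcripts of the 24 paired members (grey lines, with a tick at the start), against distance in kb along the gene. The panels hold transcripts under 15 kb, from 15 to 100 kb and over 100 kb. The bars of 8 genes lie across the tick, and those of Foxn3 lie far inside.

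Member islands had a lower median width than islands as a whole, 3600 bp against 4800 bp. The quartiles were 2000 and 5850 bp for member islands and 3000 and 7600 bp for all islands, so the widths overlapped widely. The median was 2600 bp in Fox, 3600 bp in Klf, 3900 bp in Tbx and 4400 bp in Sox genes. Member islands ranged from 600 to 14200 bp, while the widest island of the list measured 169800 bp. A MACS region lay in 2 of the 40 member islands (5%), against 4.82% of all islands.

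**Figure D4:**
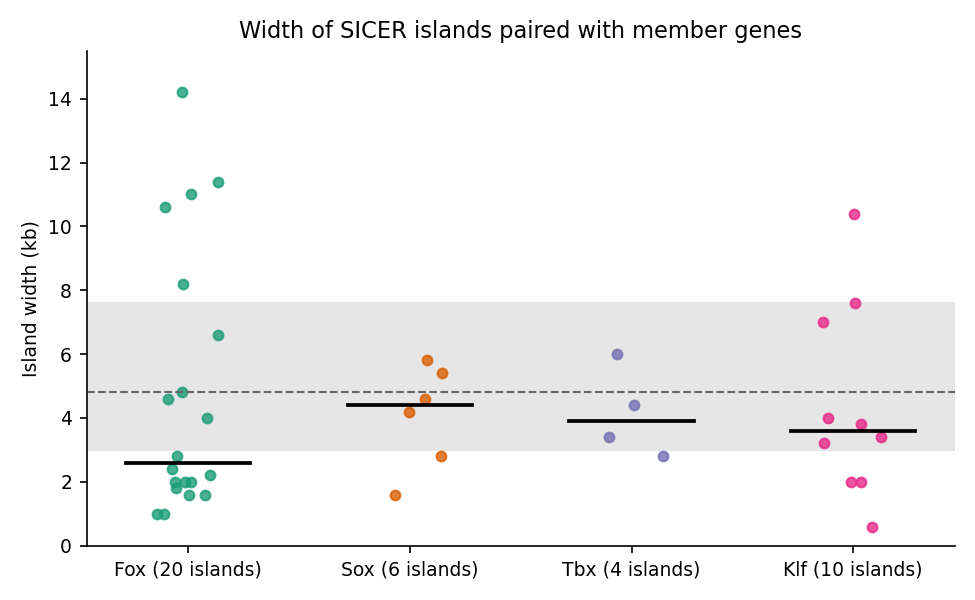
Width in kb of each SICER island paired with a member (points, spread sideways at random for legibility), with the family median (black line). The dashed line and grey band give the median and quartiles of all 8242 islands. The Fox points hold the widest member island and also many below the band.

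The 17 MACS regions of members were described by the deposited wording as contained within the gene in 8 cases, partly overlapping it in 2, in an intron in 1, upstream in 5 and downstream in 1. Overlap with a gene thus held for 64.7%, against 75.9% of all 1704 regions. A total of 5 lay in an island of any gene (29.4%, against 30.6% of all regions). These belonged to Foxf1, Klf16, Sox10 and Tbx1, and the island was paired with another gene except at Tbx1. Since each island is paired with 1 gene, the count of members with an island leaves out islands with a neighbour's name, such as those that hold MACS regions of Sox10 and Klf16 or begin just past the end of Foxf1.

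Gene length is set beside the counts. Members with a MACS region had a median gene length of 6.45 kb, against 9.01 kb for those without, and those with an island 23.6 kb, against 6.61 kb. Over all protein-coding genes the medians were 24.3 and 16.7 kb for genes with and without a MACS region, and 23.4 and 15.9 kb for genes with and without an island. Of the 36 members up to 5 kb long, 5 (13.9%) were named by MACS, where 3.09% of all genes of that length were, and 4 (11.1%) had an island, against 8.68%. Of the 24 members of 20 to 100 kb, 1 was named by MACS and 12 (50%) had an island, against 7.77% and 21.2%. Among the 8 members over 100 kb, Foxn3 had islands (12.5%, against 19.2% of all genes of that length) and none was named by MACS (against 7.0%).

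**Figure D5:**
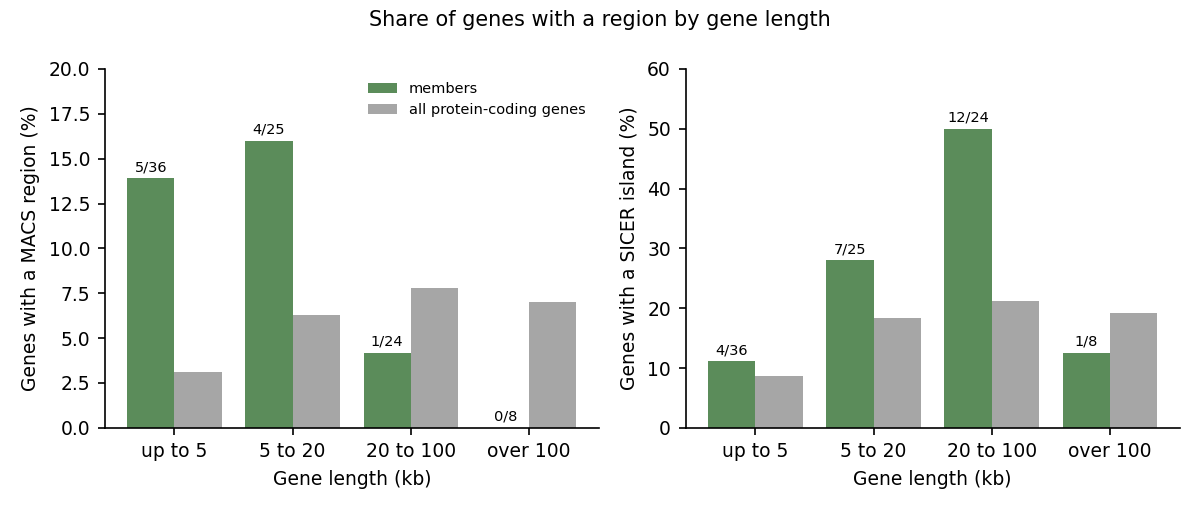
Share of genes in percent with a MACS region (left) and a SICER island (right) by gene length in kb, for the members (green, with counts) and all protein-coding genes (grey). MACS shares of members are highest under 20 kb, and their island share is highest from 20 to 100 kb.

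Relatives and partners of these factors were looked up from 4 lists. Of 14 relatives outside the naming rule, the T-box gene Mga was named by a MACS region at 119723000 on chromosome 2 (7.14%, against 6.14% of all genes). Sp2 and Sp6, of the Sp genes related to Klf, were each paired with an island upstream, of 3000 and 2400 bp (14.3%, against 17.2%). Both shares were near the background. Of 17 corepressors and coactivators, Crebbp was named by MACS (5.88%, against 6.14% of all genes). Islands were paired with 5 of them (29.4%, against 17.2% of all genes), among them Ctbp1, Ctbp2, Sin3b and Tle3. The Sin3b islands measured 2200 bp, across the gene start, and 6600 bp, inside.

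Regulators and targets of FoxO proteins were looked up in the same way, with no test of their shares against other genes. Of 14 regulators, 7 (50%, against 17.2% of all genes) had an island, among them Akt2, Sgk1, Usp7, Ywhag and Ywhaz, while Mdm2 and Skp2 (14.3%, against 6.14%) were named by MACS. The kinase gene Sgk1 had an island of 1000 bp across its start. Of 19 target genes, 9 (47.4%) had an island, and 4 of these, Cdkn1b, Gadd45b, Insr and Irs2, were also named by MACS (21.1%, against 2.46% of all genes with both). Insr, the insulin receptor, had a region at chr8:3279070-3279550 inside an island of 6000 bp across its start. Pck1, an enzyme of gluconeogenesis, had an island of 5400 bp across its start, and the ubiquitin ligase gene Fbxo32 had islands of 7600 bp across its start and 17000 bp inside.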

How the data were processed

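Both deposited lists hold base positions and distances, with no counts or scores. Per the submitters' processing notes, the authors used Bowtie2 (given as 2.10), MACS (given as 1.4) and SICER. The names of the deposited lists point to MACS2, a p of 0.05 and a top 20 selection of islands. What that selection was, and which libraries entered each call, is not stated in the labels or headers. The 4304 MACS lines were reduced to 1704 distinct regions, with an end written as a question mark set to the start. Island width is end minus start plus 1. All 8242 deposited overlap lengths equal the overlap with the paired gene extended by 10 kb, so farther islands do not enter. Names were matched to RefSeq (GRCm38.p6) by symbol, then by transcript accession for islands, then by unique synonym. The matching and placement steps, in Python 3.11.15 with pandas 2.3.3, were checked on simulated regions.

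By the fixed rule, values were given for every member with a MACS region, with an island over its start or end, with 2 or more islands, or with the widest island of its family. The other members with an island (Foxa3, Foxk2, Foxn4, Klf4, Klf9, Klf14, Sox4 and Tbx2) were described after their values were seen, and members in neither list are named without values. Members and lists were chosen with earlier results of these data known, so no test was made. RefSeq promoter windows matched 63 of 93 members (67.7%). A comparison of promoter CpG or GC content over the members is therefore void, being under 80%, and single sequences are shown as descriptions. Subfamilies follow common usage. Some genes of the lists are not reported here by name.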

Additional observations from a re-analysis of the deposited data

How the results depend on the processing

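The number of members named by MACS stayed between 9 and 10 with other distance limits, name columns, symbols or without chromosome 16. It was 5 of 93 without regions whose positions are rounded to 1000 bp, an alternative chosen after seeing the data. This removes Foxc2, Foxf1, Foxj2, Foxl1 and Sox21. Such rounded regions were 47.1% of member regions and 26.1% of all regions. The share of all protein-coding genes named without them was not computed. Whether the difference between 10.8% of members and 6.14% of all genes holds without them is therefore unknown. Members with an island numbered 24, or 17 with overlap of the gene body required (18.3%, against 13.8% of all genes). They were 12 with islands within 2 kb of the gene start (12.9%, against 6.80% of all genes). With islands at least as wide as the median they were 11 (11.8%, against 10.8%). Members with both were 3, but 1, Tbx1, when a region had to share 1 bp with an island of the same gene. With every line counted, the 17 MACS regions became 42 lines. Members in neither list were 62 (66.7%, against 79.1% of all genes), or 68 with limits of 5 kb upstream. For the count of 68, no share over all genes is given here. The planned change from CpG to GC content was not run, because the promoter comparison was void. No paired analysis was possible because regions carry no values of single libraries, and none could be left out in turn.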

Other observations

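The members with regions were unevenly spread over chromosomes. Of the 6 members on chromosome 8, 3 were named by MACS and 1 had an island, all in the Foxf1 cluster, which spans 46.3 kb in GRCm38. Over the protein-coding genes of that chromosome, MACS named 10.2% and SICER 35.5%, the highest island share of any chromosome. On chromosome 11, 6 of 10 members were paired with an island, where 31.5% of its protein-coding genes were, and none was named by MACS (11.2% of its genes). None of the 6 members on the X, the 6 on chromosome 9, the 4 on chromosome 2 and the 3 on chromosome 3 had a region in either list. Over all genes, MACS named 0.311% on the X, 4% on chromosome 9, 5.89% on chromosome 2 and 5.39% on chromosome 3, and SICER 0.311%, 14.5%, 20.2% and 9.16% in the same order. With so few members, counts of 0 are near what these shares give. On chromosome 13, 3 of 6 members had one, where MACS named 1.81% and SICER 4.95% of its genes. Copy number was not measured, and its part in these counts was not tested.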
